A study of Mus musculus with 3 samples.

Results

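The 10 genes described here belong to the Wnt and β-catenin pathway and were taken by symbol from the 32285 genes of the count matrices: the transcriptional co-activator *Ctnnb1*, the HMG-box factors *Tcf7l1*, *Tcf7l2* and *Lef1*, the feedback inhibitors *Axin2* and *Nkd1*, the destruction complex genes *Apc* and *Gsk3b*, and the secreted proteins *Wif1* and *Dkk3*. They were followed in single cells sorted for tdTomato from retinas of Glast-CreERT2; R26-CAG-LSL-Tdt mice, in which tamoxifen (75 mg/kg on 5 days from P20) switches on the reporter in cells that express Glast, chiefly Müller glia (MG). Every group received an AAV7m8 vector at P28 whose transgene is driven by the GFAP promoter, and retinas with good GFP signal were harvested at P51. The control virus carried GFP and a LacZ shRNA. The CCA virus carried cyclin D1 and a p27 shRNA and was mixed 9:1 with the control virus. CCANT mice received the CCA mixture, then NMDA at P35 and trichostatin A (TSA, a histone deacetylase inhibitor) at P37.

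Each group is 1 library made from 2 to 4 pooled retinas, so no comparison has a replicate and no test between groups was made. Levels are given as CPM (UMIs per 1000000 UMIs summed over the same cells), and brackets give exact 95% Poisson intervals for a level or a ratio, which cover counting error only. A gene was counted as higher or lower in a comparison when its ratio passed 1.5-fold (0.58 on the log2 scale) and it had at least 100 UMIs. This minimum was summed over all libraries in contrasts between libraries and over both groups of cells in the others. The series-wide table held 3758 control, 3890 CCA and 3278 CCANT cells, which had 70825549 to 95458516 UMIs per library in the library matrices. *Cdkn1b*, the target of the p27 shRNA, had a level of 225.9 CPM in the control library, 84.4 in CCA and 105.7 in CCANT. All 3505 control cells that could be sexed carried Y-linked transcripts and all 3859 such CCA cells carried *Xist*, so sex and treatment cannot be told apart between these libraries, whereas CCANT held 1183 Y and 1718 *Xist* cells. The label MG was checked against 8 markers: their summed level in control, CCA and CCANT cells was 13808, 12079 and 11131 CPM, none was at 0, and 98.2%, 90.9% and 85.5% of cells passed the marker rule for MG alone. Against control, 1 of the 8 was higher in CCA (*Sox9*) and 2 in CCANT (*Sox9* and *Car14*), and the rest were lower. The summed level of 10 rod markers, of which none was at 0 and all 10 were higher in both treated libraries, was 334.7 in control, 962.8 in CCA and 1790 in CCANT cells, and that of the immediate-early and dissociation genes 3403, 6166 and 6036. The share of mitochondrial UMIs was 3.50% to 3.97%, and 2 to 8 barcodes of the kept cells were shared between any 2 libraries.

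In canonical Wnt signaling, a Wnt ligand binds Frizzled and Lrp5 or Lrp6, the complex of Axin, Apc and Gsk3b that marks β-catenin for destruction is held back, and β-catenin enters the nucleus to act with TCF/LEF factors. *Axin2*, *Nkd1* and *Lef1* are among the genes widely used as transcriptional readouts of the pathway. Axin2, a scaffold of the destruction complex, and Nkd1, which binds Dishevelled, also feed back on it. Tcf7l1 acts mainly as a repressor at TCF sites. In the retina, Wnt signaling is known for its part in MG proliferation, in the ciliary margin and in the growth and barrier of retinal vessels.

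The 250 bases before a RefSeq start site (GRCm38.p6) were searched for the TCF/LEF core, spelled as CTTTG followed by 2 letters that are each A or T, on both strands. Such a string was present in 14.8% of all 32851 such windows. Windows were taken for 8 members, and none was taken for *Apc* or *Dkk3*. Among these 8 members, a match was found in 1 of 2 windows of *Tcf7l2* and 1 of 4 of *Lef1*. No match was found for *Ctnnb1*, *Axin2*, *Tcf7l1*, *Nkd1*, *Gsk3b* and *Wif1*. The windows of *Nkd1* and *Axin2* are shown because these 2 genes had the largest ratios to control among members with at least 100 UMIs, and those of *Tcf7l2* and *Lef1* because they hold a match, given in capitals. The *Nkd1* gene spans chr8:88521354-88594884 and its window chr8:88527383-88527632. *Axin2* spans chr11:108920349-108950783 and its window, directly upstream, is chr11:108920099-108920348. *Tcf7l2* spans chr19:55741820-55933654 and its window is chr19:55895071-55895320, and *Lef1* spans chr3:131110471-131224356 with the window chr3:131156044-131156293. All 4 genes lie on the forward strand (GENCODE vM21 on GRCm38), the windows of *Nkd1*, *Tcf7l2* and *Lef1* belong to start sites inside the gene, and the sequences are printed 5′ to 3′.
Nkd1: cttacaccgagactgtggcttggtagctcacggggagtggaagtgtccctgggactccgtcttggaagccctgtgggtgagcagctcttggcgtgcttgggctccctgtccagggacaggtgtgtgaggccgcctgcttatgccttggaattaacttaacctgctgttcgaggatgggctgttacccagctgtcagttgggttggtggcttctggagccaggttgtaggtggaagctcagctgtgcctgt
Axin2: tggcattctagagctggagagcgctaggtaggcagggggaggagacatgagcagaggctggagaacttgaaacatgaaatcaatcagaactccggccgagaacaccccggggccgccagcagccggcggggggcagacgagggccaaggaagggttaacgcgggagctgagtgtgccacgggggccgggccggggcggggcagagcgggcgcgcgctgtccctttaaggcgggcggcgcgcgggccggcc
Tcf7l2: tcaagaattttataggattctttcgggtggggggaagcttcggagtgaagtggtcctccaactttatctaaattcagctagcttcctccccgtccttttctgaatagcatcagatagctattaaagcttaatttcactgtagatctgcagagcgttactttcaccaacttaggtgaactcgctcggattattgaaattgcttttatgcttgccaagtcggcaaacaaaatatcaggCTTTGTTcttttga
Lef1: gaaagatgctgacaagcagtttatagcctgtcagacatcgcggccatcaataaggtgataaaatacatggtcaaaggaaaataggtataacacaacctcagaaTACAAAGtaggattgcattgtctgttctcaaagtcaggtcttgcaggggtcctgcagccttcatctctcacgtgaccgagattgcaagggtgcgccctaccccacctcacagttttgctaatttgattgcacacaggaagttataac
The match of *Tcf7l2* starts 14 bases and that of *Lef1* 147 bases before the start site. A match is a string of letters and not a shown binding site, and its absence says only that these letters are not in this window.

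*Nkd1*, which acts against Dishevelled, had the largest difference between libraries among members with at least 100 UMIs. Its level was 180.4 (177.7 to 183.1) CPM in control cells, 111.6 (109.4 to 113.9) in CCA and 102.3 (99.95 to 104.7) in CCANT cells. Both treated libraries were low against control. The CCA level was 1.62-fold lower, at a log2 ratio of -0.69 (-0.73 to -0.66), and the CCANT level 1.76-fold lower, at -0.82 (-0.86 to -0.78). After each cell was thinned to 8000 UMIs, 71.9% (70.4 to 73.3) of control, 52.6% (51 to 54.2) of CCA and 48.6% (46.9 to 50.3) of CCANT cells held an *Nkd1* UMI. Without thinning these shares were 94.5%, 77.5% and 74.9% at median depths of 24236, 20710 and 20722 UMIs. Bipolar cells, with median depths of 14501 to 16952 UMIs, held *Nkd1* in 3.36% to 4.25% of thinned cells, and microglia in 1.98% to 5.10%. Cells with 3 or more *Nkd1* UMIs at that depth were 19.5% in control, 8.37% in CCA and 7.47% in CCANT.

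**Figure D1:**
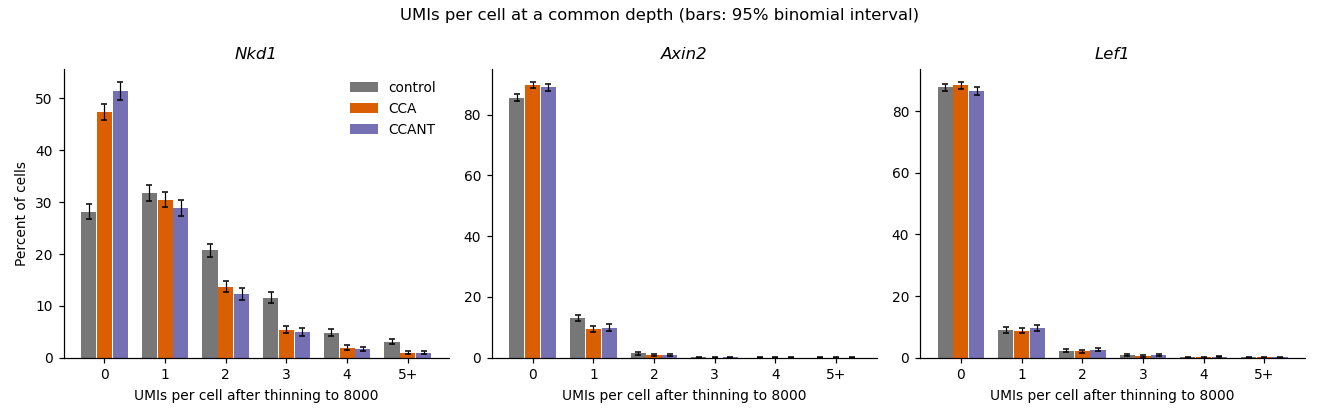
Share of series-wide table cells (y axis, percent) by UMIs per cell after thinning to 8000 UMIs (x axis) for *Nkd1*, *Axin2* and *Lef1* in control (grey), CCA (orange) and CCANT (purple), with exact 95% binomial intervals. Cells without *Nkd1* were fewest in control, where 71.9% held a UMI, while *Axin2* and *Lef1* were absent from most cells of every library.

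*Axin2* was also lower in both treated libraries. Its level was 19.3 (18.4 to 20.2) in control, 14.6 (13.8 to 15.4) in CCA and 15.9 (15 to 16.9) in CCANT cells, with log2 ratios of -0.41 (-0.51 to -0.30) and -0.28 (-0.39 to -0.17) to control. Control was the highest of the 3 libraries for both feedback inhibitors, and the *Axin2* ratios did not reach 1.5-fold. At 8000 UMIs per cell, 14.6% (13.4 to 15.7) of control, 10.3% (9.37 to 11.3) of CCA and 11.0% (9.95 to 12.1) of CCANT cells held an *Axin2* UMI, against 35%, 24.2% and 26.2% unthinned. At the same depth it was held by at most 1.02% of microglia, by 5.92% to 7.42% of bipolar cells and by 12.1% to 18.9% of amacrine cells.

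The 3 HMG-box factors were within 1.5-fold in every library contrast. *Tcf7l2* was at 346.9 in control, 319.6 in CCA and 333.4 in CCANT cells, and *Tcf7l1* at 261.6, 250.1 and 262.9. *Lef1* was at 21.1 (20.2 to 22.0), 20.4 (19.5 to 21.4) and 23.9 (22.8 to 25.1), so that CCANT was the highest of the 3, at log2 ratios of 0.18 (0.09 to 0.27) to control and 0.23 (0.13 to 0.33) to CCA. At 8000 UMIs, 0.871% to 1.27% of cells held 3 or more *Lef1* UMIs. The variance of its UMIs per cell was 1.65 to 1.74 times the mean in the 3 libraries, that of *Dkk3* 1.74 to 2.59 times, of *Tcf7l1* 1.48 to 1.59, of *Tcf7l2* 1.44 to 1.49, of *Nkd1* 1.30 to 1.48 and of *Axin2* 1.04 to 1.10. The means differed widely, from 0.113 to 0.161 UMIs for *Axin2* to 14.0 to 16.7 for *Dkk3*. These multiples depend on the mean and do not rank the genes by relative spread between cells. Of the 6 endothelial markers in the same cells, *Cldn5*, *Pecam1* and *Cdh5* together were at 2.01, 3.11 and 2.16 CPM and *Tie1* had 0, 5 and 7 UMIs, whereas *Kdr* was at 803.6, 705.2 and 825.1 CPM and *Flt1* at 1409, 1128 and 1295.

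*Ctnnb1* was the one member with a higher level in both treated libraries, at 120.2 (118.0 to 122.5), 131.2 (128.8 to 133.7) and 133.4 (130.7 to 136.1), which gave log2 ratios to control of 0.13 (0.09 to 0.16) and 0.15 (0.11 to 0.19). Its partners in the destruction complex were at 120.5, 116.9 and 112.4 for *Apc* and at 271.1, 253.2 and 253.7 for *Gsk3b*, a kinase with many other substrates.

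*Dkk3*, a secreted Dickkopf family protein whose effect on Wnt signaling varies with the setting, was lower in both treated libraries by less than 1.5-fold. Its level was 2090 in control, 1763 in CCA and 1865 in CCANT cells, with log2 ratios of -0.25 (-0.26 to -0.24) and -0.16 (-0.17 to -0.15) to control. *Wif1*, a secreted inhibitor that binds Wnt ligands, was rare: it had 14 UMIs in 6 control cells, 4 in 3 CCA cells and 17 in 12 CCANT cells. Its CCA to control log2 ratio was -1.61 (-3.67 to 0.06) and it stayed under the minimum of 100 UMIs.

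Of the 9 members with at least 100 UMIs, 1 (*Nkd1*) was lower and 0 were higher past 1.5-fold in CCA over control, where 2.73% of 16913 genes were lower and 11.2% higher. The same single member was lower and 0 were higher in CCANT over control, beside 5.47% and 10.9% of all genes. Between CCANT and CCA, 0 members were past the fold, beside 2.83% of genes higher and 5.54% lower. The median log2 ratio of the 9 members was -0.10 for CCA and -0.10 for CCANT over control, and that of all genes 0.07 and 0.03. Both contrasts use the same control library, so their ratios are not independent.

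**Figure D2:**
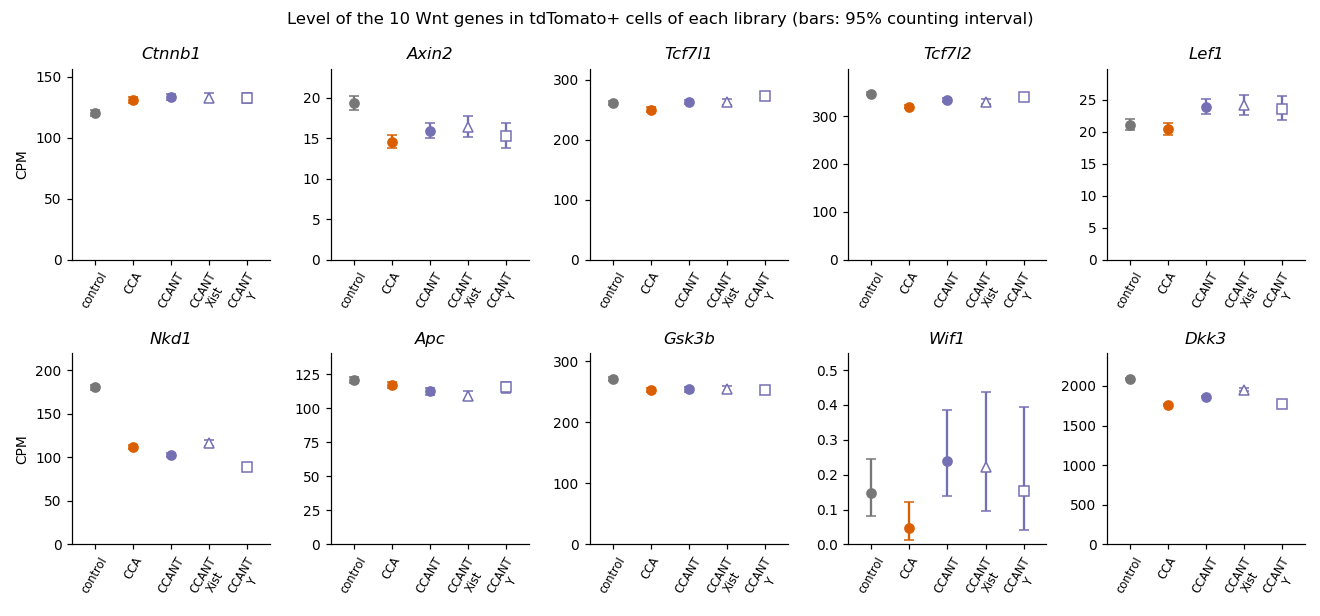
Level of each member (y axis, CPM, from 0) in series-wide table cells of the control, CCA and CCANT libraries (filled) and in CCANT cells with *Xist* (triangles) or Y-linked transcripts (squares), with 95% counting intervals. *Nkd1* stands at 180.4 in control and between 88.5 and 116.2 in the other points, while the remaining members with 100 UMIs have ratios to control nearer to 1.

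CCANT held cells of both sexes, which could be set against the library of the same sex. Its Y and *Xist* cells come from different mice of 1 pool of 2 to 4 retinas. Sex therefore cannot be told apart from animal within CCANT. *Nkd1* in CCANT Y cells was at 88.5 CPM, a log2 ratio of -1.03 (-1.09 to -0.97) to control. In CCANT *Xist* cells it was at 116.2, a log2 ratio of 0.06 (0.00 to 0.11) to CCA. The difference of CCANT Y cells from control was thus larger than that of all CCANT cells (-0.82). Ratios to control and to CCA used all cells of those libraries, in which every sexed cell was Y or *Xist*, respectively. Within CCANT, Y cells were below *Xist* cells for *Nkd1* by a log2 ratio of -0.39 (-0.47 to -0.32) and for *Dkk3* by -0.14 (-0.16 to -0.12). *Axin2* in CCANT Y cells was at 15.2, a log2 ratio of -0.34 (-0.50 to -0.18) to control, and in CCANT *Xist* cells at 16.4.

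Rod transcripts and cycling cells were more frequent in the treated libraries. Before deposit the authors had left out 1 group of cells with MG and rod transcripts and kept another, partly by how the libraries were represented in them, and the part of this choice in the rod values was not tested. Cells that passed the rules for both MG and rods numbered 40 in control, 199 in CCA and 403 in CCANT. Among cells that passed only the MG marker rule, the *Nkd1* log2 ratio was -0.66 for CCA and -0.77 for CCANT over control, and without cells holding a *Mki67* or *Top2a* UMI it was -0.67 and -0.81. Within the control library, cells with no, 1 or at least 2 GFP UMIs had *Nkd1* at 181.0, 167.8 and 188.0 CPM. The part of the summed immediate-early level, which was higher in both treated libraries, in the *Nkd1* difference was not tested.

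A list of 90 other genes of the pathway was examined in the same cells. Of the 62 with at least 100 UMIs, 5 were higher and 3 lower in CCA over control, 9 higher and 5 lower in CCANT over control, and 5 higher and 0 lower in CCANT over CCA. Over all 16913 genes the shares were 11.2% higher and 2.73% lower, 10.9% and 5.47%, and 2.83% and 5.54%. The list's median log2 ratios were -0.06, -0.01 and 0.01. By role, with *Lgr5*, *Rnf43*, *Znrf3* and *Notum* each counted under 2 roles, 2 of 10 ligand and secretion genes were higher in CCA and 0 lower, and 4 were higher and 1 lower in CCANT over control. Of 6 secreted inhibitors, 0 were higher and 1 lower in CCA, and 1 and 1 in CCANT. Of 17 receptor genes, 0 passed in CCA, and 1 was higher and 1 lower in CCANT. The R-spondin genes gave 1 higher of 4 in both, the nuclear genes 1 higher of 11 in both, and the cytoplasmic and destruction complex genes 0 of 10 in both. Of 8 target genes, 2 were higher and 3 lower in CCA, and 3 higher and 2 lower in CCANT.

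Of the other readout genes, *Ccnd1*, which encodes cyclin D1, was at 213.3 in control, 135.9 in CCA and 129.0 in CCANT cells, at log2 ratios of -0.65 (-0.68 to -0.62) and -0.73 (-0.76 to -0.69). The treated groups also carried a cyclin D1 transgene, and whether its reads were counted under this symbol is not known. *Sp5*, a direct target in many tissues, was named after its values were seen: it had 127 UMIs in control and 30 in each treated library, with log2 ratios of -1.88 (-2.51 to -1.30) and -1.65 (-2.28 to -1.07). *Znrf3*, a ligase that removes Frizzled and is itself a target, was at 199.6, 166.2 and 157.4. In CCANT Y cells over control, *Sp5* had a log2 ratio of -1.65 (-2.69 to -0.76), *Ccnd1* of -0.75 (-0.81 to -0.70) and *Znrf3* of -0.38 (-0.43 to -0.33). These 3 were thus also lower when only CCANT Y cells were set against control.

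Other targets were higher in 1 or both treated libraries. *Lgr5*, an R-spondin receptor, was at 2.33 in control, 4.28 in CCA and 5.06 in CCANT cells, and neurons held it at 67.2 to 113.6. *Myc*, also named after its values were seen, had 29 UMIs in control, 157 in CCA and 104 in CCANT. *Notum*, which encodes an enzyme that removes the lipid of Wnt proteins, was named after its values were seen too: it had 95, 53 and 144 UMIs, so its log2 ratio to control was -0.64 (-1.16 to -0.15) in CCA but 1.03 (0.65 to 1.42) in CCANT, and that of CCANT to CCA was 1.68 (1.21 to 2.16). In CCANT Y cells over control, the log2 ratio was 0.88 (0.54 to 1.21) for *Lgr5*, 1.93 (1.14 to 2.71) for *Myc* and 0.86 (0.33 to 1.38) for *Notum*.

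*Wnt5b*, a ligand of the non-canonical branch, was at 32.8 in control, 41.3 in CCA and 72.4 in CCANT cells, the last with log2 ratios of 1.14 (1.08 to 1.21) to control and 0.81 (0.75 to 0.87) to CCA. Its level in neurons of the 3 libraries was 44.6, 37.5 and 48.0. *Tcf7*, the fourth TCF/LEF gene, was at 7.27, 7.21 and 11.1, with a log2 ratio of 0.60 (0.46 to 0.75) for CCANT over control. For CCANT Y cells over control the log2 ratio was 1.12 (1.03 to 1.20) for *Wnt5b* and 0.78 (0.59 to 0.98) for *Tcf7*. *Wnt9a* was highest in CCA, at 3.52, 7.46 and 5.42. *Cby1*, which binds β-catenin, was at 26.4, 39.8 and 32.2 and had log2 ratios of 2.54 in CCA and 2.21 in CCANT for cells with 3 or more *Mki67* and *Top2a* UMIs over cells with none. *Fzd9*, a Frizzled receptor, was at 6.05, 4.76 and 3.91. The listed genes with the highest levels beside *Ccnd1* and *Znrf3*, which were *Ror1*, *Csnk1a1* and *Ctnnbip1*, were at 270.1, 265.5 and 239.3 in control and within 1.5-fold in both treated libraries.

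Cells were placed in a cycling group when they held at least 1 UMI of *Mki67* or *Top2a*, which took 42 control, 752 CCA and 299 CCANT cells. By this rule 0 of 9 members were past 1.5-fold against the other cells in either treated library. The background was 7.86% of genes higher and 1.57% lower in CCA, and 7.24% higher and 2.74% lower in CCANT. The members were also graded by the number of UMIs: 240 CCA and 78 CCANT cells held 3 or more, 148 and 49 of them 10 or more, and in control 2 cells held 3 or more. These 2 cells had 0 UMIs of *Tcf7l1*, *Tcf7l2* and *Nkd1* and MG markers at 302.6 CPM, against 13826 in control cells with none. The 40 control cells with 1 to 2 such UMIs had *Axin2* at 33.4 CPM, from 39 UMIs, against 19.1 in cells with none, a log2 ratio of 0.80 (0.31 to 1.26). The same step had *Axin2* at 14.77 against 14.79 in CCA and at 17.95 against 15.72 in CCANT. The share of all genes past 1.5-fold at this step was not worked out. With the limit at 3, *Tcf7l1*, *Lef1* and *Dkk3* were lower in CCA (3 of 9, beside 15.3% of genes lower and 18.3% higher) and *Dkk3* alone in CCANT (1 of 9, beside 14.7% lower and 18.2% higher).

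*Dkk3* was lower at each step. In CCA its level was 1828 in cells with no such UMI, 1768 with 1 to 2, 1445 with 3 to 9 and 911.1 with 10 or more. In CCANT the same steps were 1894, 1793, 1549 and 1070. The log2 ratio of the highest to the lowest step was -1.0 (-1.05 to -0.96) in CCA and -0.82 (-0.90 to -0.75) in CCANT. *Tcf7l1* followed the same order in CCA, with 257.4, 254.9, 199.7 and 148.5, and ended at 177.3 from 265.9 in CCANT. *Tcf7l2* did not: it was at 321.3 and 326.4 at the 2 ends in CCA and at 333.8 and 330.0 in CCANT.

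*Ctnnb1* was higher in cells with 10 or more such UMIs than in cells with none, though not at each step. Its level in CCA was 130.1 with none, 124.5 with 1 to 2, 136.9 with 3 to 9 and 162.6 with 10 or more, the last at a log2 ratio of 0.32 (0.21 to 0.43) to the first. In CCANT the levels were 132.0, 127.6, 142.4 and 208.5, and that log2 ratio was 0.66 (0.49 to 0.82). *Nkd1* and *Axin2* were within 1.5-fold at 3 or more UMIs: *Nkd1* had log2 ratios of -0.18 (-0.30 to -0.06) in CCA and -0.01 (-0.21 to 0.18) in CCANT, and *Axin2* of -0.34 (-0.71 to 0.00) and 0.05 (-0.47 to 0.53). *Gsk3b* and *Apc* stayed within 1.5-fold at every step.

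*Lef1* was lower with more cycling UMIs in CCA. There its level was 21.75 in cells without cycling UMIs, 17.8 with 1 to 2, 12.2 with 3 to 9 and 10.7 with 10 or more, the last from 47 UMIs. In CCANT the levels were 23.5, 29.9, 18.5 and 23.9, with no such order. The log2 ratio at 3 or more UMIs was -0.96 (-1.33 to -0.61) in CCA and -0.08 (-0.52 to 0.33) in CCANT. In CCANT *Xist* cells, the sex of the CCA cells, it was -0.19 (-1.03 to 0.54) from 15 UMIs in the cycling group, an interval that overlaps that of CCA. The difference between the libraries was not tested.

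**Figure D3:**
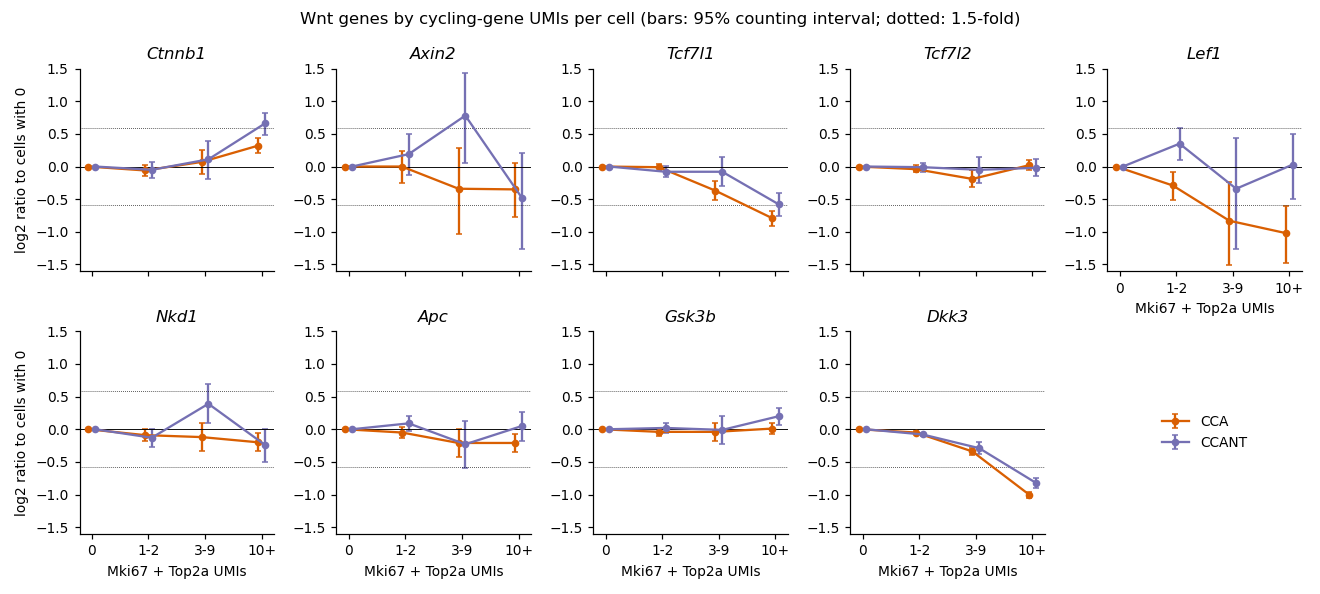
Log2 ratio of each member's level (y axis) in cells with 1 to 2, 3 to 9 and 10 or more *Mki67* and *Top2a* UMIs to cells with 0 (x axis) in CCA (orange) and CCANT (purple), with 95% counting intervals and dotted lines at 1.5-fold. *Dkk3* ends at -1.0 and -0.82, *Ctnnb1* at 0.32 and 0.66, and *Lef1* at -1.02 (-1.47 to -0.60) in CCA and 0.03 (-0.49 to 0.50) in CCANT.

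MG markers were lower in cells with 3 or more cycling UMIs. The summed level of 8 MG markers was 5966 in CCA cells with 3 or more cycling UMIs against 12681 in cells with none, and 5554 against 11409 in CCANT, while rod markers were at 1073 against 966.7 and at 1803 against 1766. The part of this in the *Dkk3*, *Tcf7l1* and *Lef1* ratios was not tested.

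Cell classes were then set by markers among all 9579 control, 10521 CCA and 10890 CCANT cells that passed the filters, without the tdTomato requirement. MG numbered 5791, 4877 and 5038 cells, rods 870, 1453 and 1430, bipolar cells 596, 874 and 971, amacrine cells 566, 690 and 559, cones 136, 249 and 216, and ganglion cells 105, 56 and 32. These marker classes are MG-like, rod-like and so on, and are called MG, rods and so on for short. In the class called MG, the median summed MG marker level was 132 per 10000 UMIs, against 3.10 to 5.90 in the neuron classes. At the limit of the number of markers needed were 122, 315 and 330 of the MG, 51, 84 and 60 of the rods and 180, 216 and 172 of the amacrine cells. Levels summed over cells do not tell fewer cells with a transcript from less RNA per cell.

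Of the nuclear factors, *Tcf7l1* was at 249.3 to 268.4 CPM in MG and at 4.91 to 10.5 in the neurons together, and *Tcf7l2* at 325.0 to 345.9 and 7.10 to 14.5. *Lef1* was at 20.7 to 23.4 in MG and 0.720 to 2.05 in neurons, *Nkd1* at 102.3 to 176.2 and 5.52 to 9.03, and *Dkk3* at 1735 to 2071 and 168.1 to 188.6. Transcripts of *Glul*, *Rlbp1* and *Aqp4*, which mark MG, were found in the neurons together at 2.94% (control), 3.47% (CCA) and 4.37% (CCANT) of their MG level. *Tcf7l1* and *Tcf7l2* lay below that share in all 3 libraries, so they were not detectable above it in the neurons together, whereas *Nkd1* and *Dkk3* lay above it in each library with their intervals. *Lef1* did so in CCANT, where neurons were at 2.05 (1.65 to 2.53). In control (0.740, 0.491 to 1.07) and CCA (0.720, 0.498 to 1.01) its interval included the carried-over level. Of the *Lef1* UMIs in CCANT neurons, 63 were in rods, and 5 rods held 35 of these. The counting interval does not cover such clumping, so the CCANT value does not show *Lef1* across the neuron classes. *Apc* and *Gsk3b* had the opposite order: *Apc* was at 112.7 to 123.0 in MG and 336.8 to 388.7 in neurons, with the highest values in amacrine cells (496.8 to 545.5), and *Gsk3b* at 255.0 to 270.1 and 412.4 to 430.4, with the highest in ganglion cells (523.6 to 539.2). *Ctnnb1* was at 121.5 to 130.5 in MG and 80.3 to 82.5 in neurons. The carried-over share was set for the neurons together and was not worked out for single classes, which differed. In control, *Dkk3* was at 57.4 in bipolar cells and 298.4 in amacrine cells, and *Tcf7l2* at 22.4 in rods and 4.62 in amacrine cells.

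Past 1.5-fold, 6 of 9 members were higher and 2 lower in MG than in neurons in each library. Among all genes, 26.1% were higher and 33.0% lower in control, 28.6% and 30.1% in CCA, and 27% and 31.3% in CCANT. Members higher in all 3 libraries were *Tcf7l1*, *Tcf7l2*, *Lef1*, *Nkd1* and *Dkk3*, and those lower in all 3 were *Apc* and *Gsk3b*, beside 22.8% and 26.6% of 16355 genes. The 1.5-fold limit was passed by *Axin2* only in control and by *Ctnnb1* only in CCA and CCANT, though the log2 ratios of *Ctnnb1* were close, at 0.56 (0.50 to 0.61), 0.66 (0.61 to 0.71) and 0.70 (0.65 to 0.75). Those of *Axin2* were 0.62 (0.48 to 0.76) in control, -0.31 (-0.43 to -0.19) in CCA and 0.18 (0.04 to 0.32) in CCANT, so that in CCA it was lower in MG (14.8) than in neurons (18.3). The median log2 ratio of the members was 3.62, 3.31 and 3.31, and that of all genes -0.17, -0.11 and -0.13.

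**Figure D4:**
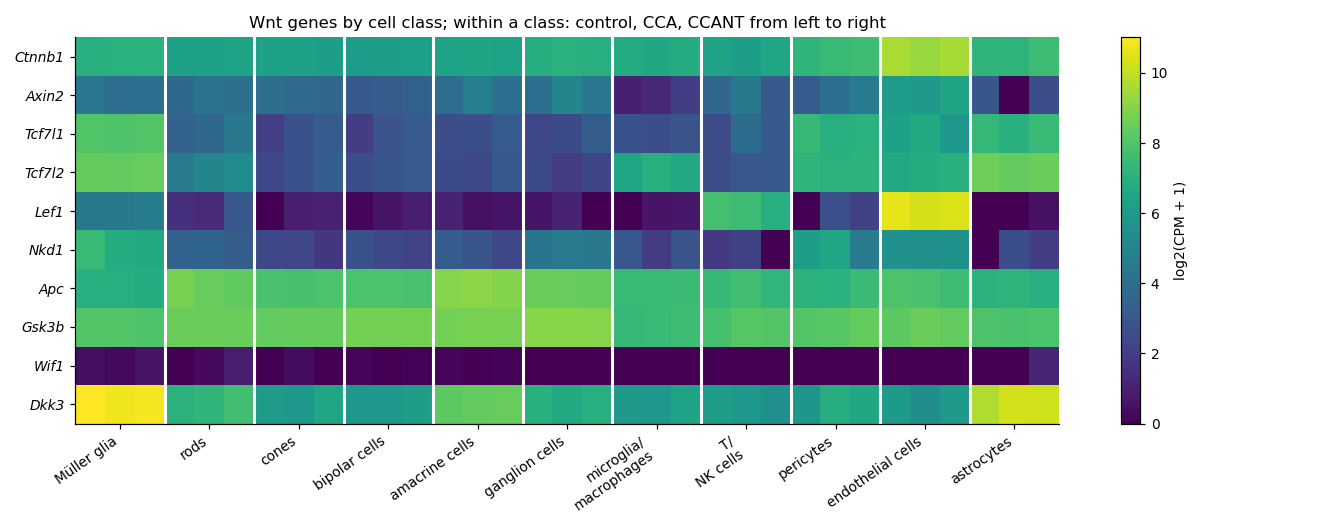
Level of the 10 members (rows) as log2(CPM + 1), coloured, in 11 cell classes (columns), each with control, CCA and CCANT from left to right. *Tcf7l2* is high in MG and in the few astrocytes (5, 24 and 94 cells), while *Dkk3* is lower in control astrocytes (835.0) than in control MG (2071). *Lef1* is highest in endothelial cells, and *Apc* is highest in amacrine cells.

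Among the other classes, *Lef1* was highest in endothelial cells. There its level was 1549 CPM (control), 1282 (CCA) and 1387 (CCANT), from 15, 36 and 22 cells, and all 12, 32 and 20 endothelial cells that could be thinned to 8000 UMIs held a *Lef1* UMI. *Ctnnb1* was at 774.5, 642.0 and 753.4 there and *Axin2* at 68.0, 60.4 and 85.2. *Lef1* was also found in T and NK cells, at 219.0, 185.4 and 119.8. *Tcf7l2* was at 87.6, 126.2 and 98.7 in microglia and macrophages. In astrocytes, from 5, 24 and 94 cells, it was at 383.8, 331.9 and 357.5, while *Nkd1* was nearly absent (0, 3 and 7 UMIs). The astrocyte class also held MG markers, at a median of 37.1 per 10000 UMIs. A count of 0, in control astrocytes, allows up to 20.2 CPM. Pericytes held *Nkd1* at 68.3, 91.0 and 23.3, the last from 7 UMIs.

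*Axin2* ordered the libraries differently in amacrine cells and in MG. In MG by markers it was at 19.2 in control, 14.8 in CCA and 15.3 in CCANT, so control was highest. In amacrine cells it was at 14.8 (12.8 to 16.9), 25.7 (23.4 to 28.2) and 15.5 (13.4 to 17.8), so CCA stood above both. The log2 ratio of CCA to control was 0.80 (0.56 to 1.04) in amacrine cells, 1.05 (0.60 to 1.5) in ganglion cells and 0.62 (0.18 to 1.07) in rods, against -0.38 (-0.47 to -0.29) in MG. It was 0.14 (-0.28 to 0.56) in bipolar cells and -0.30 (-1.01 to 0.44) in cones, where the intervals include no change. For CCANT over control it was 0.07 (-0.22 to 0.35) in amacrine cells, 0.33 (-0.30 to 0.93) in ganglion cells and 0.43 (-0.02 to 0.89) in rods.

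At 8000 UMIs, 18.9% (16.0 to 22.1) of CCA amacrine cells held an *Axin2* UMI, against 12.1% (9.43 to 15.1) in control and 12.3% (9.68 to 15.3) in CCANT. Unthinned, these shares were 40.4%, 25.6% and 27.2% at medians of 22807, 23314 and 21196 UMIs. CCANT amacrine cells with Y-linked transcripts had *Axin2* at 18.75 (15.5 to 22.5) and those with *Xist* at 12.8 (10.1 to 16.1), a log2 ratio of Y to *Xist* cells of 0.55 (0.12 to 0.98). That ratio was 0.39 (-0.86 to 1.65) in ganglion cells, 0.34 (-0.35 to 1.01) in rods and 0.03 (-0.50 to 0.57) in bipolar cells, where the intervals include no change. The Y and *Xist* cells of CCANT come from different mice, and the part of sex in the CCA to control difference was not tested.

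In rods, *Lef1*, *Tcf7l1* and *Tcf7l2* were higher in CCANT than in control. *Lef1* had 9 UMIs in 4 of 870 control rods, 14 in 13 of 1453 CCA rods and 63 in 30 of 1430 CCANT rods, or 1.77, 1.58 and 6.97 CPM, with a CCANT to control log2 ratio of 1.98 (0.97 to 3.17). The 5 CCANT rods with the most held 35 of the 63 UMIs, and the highest held 17. *Tcf7l1* was at 10.0, 11.8 and 20 and *Tcf7l2* at 22.4, 30.9 and 40.1, with CCANT to control log2 ratios of 1.0 (0.55 to 1.48) and 0.84 (0.53 to 1.16). *Dkk3* was at 134.0, 145.6 and 202.2. In rods with no tdTomato UMI the *Lef1* counts were 2, 11 and 59. *Glul*, an MG marker, was at 322.4, 343.5 and 396.6 in all these rods and at 6620, 5677 and 5400 in MG. *Rlbp1*, another MG marker, was at 135.6, 141.2 and 134.6 in the rods. The part of MG transcripts in the ratios was not tested.

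**Figure D5:**
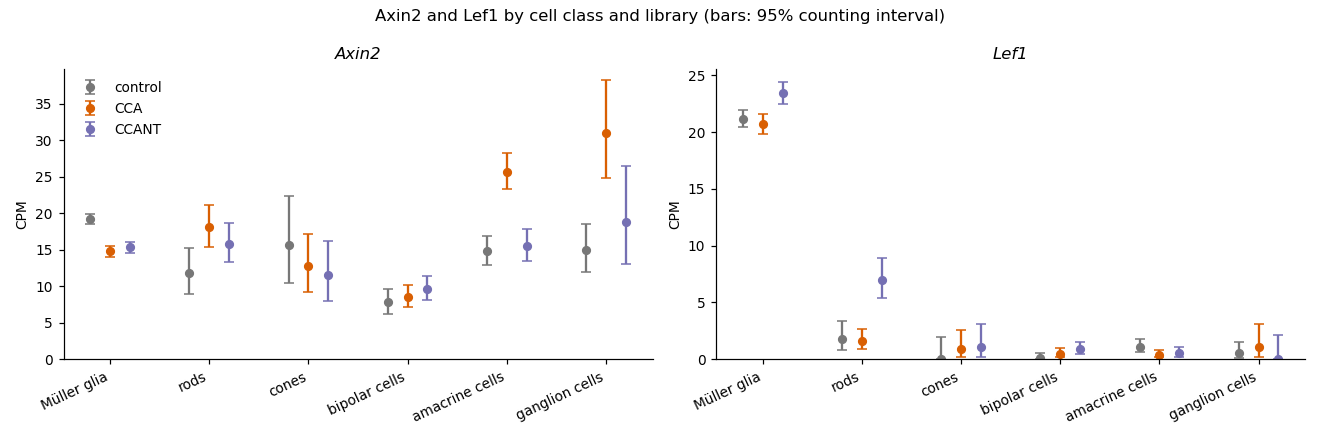
Level of *Axin2* and *Lef1* (y axis, CPM, from 0) by cell class (x axis) in control (grey), CCA (orange) and CCANT (purple), with 95% counting intervals. Among MG, *Axin2* is highest in control, and among amacrine and ganglion cells in CCA, at 25.7 and 31.0, while *Lef1* in rods stands out in CCANT at 6.97.

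*Wif1* was found in few cells of any class. Over all cells passing the filters it had 69 UMIs in 29 control, 30 in 18 CCA and 116 in 58 CCANT cells, of which 44, 20 and 54 UMIs were in MG. Cells with 3 or more numbered 10, 2 and 16, and 8, 2 and 9 of these passed as MG.

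Over the 36 groups of 12 cell classes in 3 libraries, the genes whose log2 level was most like that of a member were listed among 19696 genes, as a description over groups that share libraries. For *Axin2* they were *Atg12* (r = 0.84), *Dock9* (0.79) and *Exoc6b* (0.75). For *Lef1* they were *Rnf125* (0.93), *Icam2* (0.91) and *Ctla2a* (0.89), and for *Dkk3* *C330002G04Rik*, *Luzp2* and *Trpm3* (0.92 each). Those for *Wif1*, led by *Defb9* (0.86), rest on the few UMIs above.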

How the data were processed

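The authors sorted tdTomato+ cells, made 10x Genomics 3′ libraries and, per the paper and the submitters' processing notes (Cell Ranger 6.1.1, mm10), counted reads with introns included against a mouse reference to which tdTomato and GFP had been added. The deposited files hold raw UMI counts: 1 matrix per library and a series-wide table of the cells kept after the authors removed doublets (DoubletFinder), tdTomato-negative cells, small clusters they took for contaminants and 1 of 2 clusters that held both MG and rod transcripts. The discarded cluster drew on all libraries in like proportion, and the one they kept held more cells of the treated libraries. Over 26123 matched genes that table held a median of 93.16% of the UMIs that a control cell had in its matrix, 100% for CCA and 99.96% for CCANT cells, so counts were read from the matrices. No column of another series was met (0 unused).

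Levels were UMIs summed over cells, as CPM (per 1000000). The wider set of cells had 2000 or more features, no more than 100000 UMIs and a mitochondrial share of up to 15%. Its cells were put in classes when they held at least 2 UMIs each of a set number of a class's markers and passed for 1 class only. This rule was set after marker counts had been seen, cells that passed for more than 1 class were left out, and doublets were not otherwise removed from this wider set. Cells were called Y when *Ddx3y*, *Uty*, *Kdm5d* and *Eif2s3y* had 3 UMIs or more in sum and *Xist* no more than 1, and *Xist* cells by the reverse. Ratios carry exact conditional-binomial (Poisson) and shares exact Clopper-Pearson 95% intervals (Python 3.11.15, numpy 2.4.6, scipy 1.17.1, pandas 2.3.3). Only the ratio intervals were tried on simulated data. These were Poisson counts, the model the intervals assume, so spread beyond counting error was not covered. A count of 0 was read as at most 3 counts. Per-cell shares used cells thinned to 8000 UMIs, leaving out 36 control, 103 CCA and 53 CCANT cells.

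The members and lists were chosen with earlier results of these data known. All 10 members were named in the library comparisons; of the other Wnt genes, those with at least 5 CPM in some library that passed 1.5-fold with an interval past 1, and the 5 highest in control, and, for 4 members, the 3 genes most like each. Alternatives were other scalings, cell sets, minimums and limits. Gene and promoter positions are those of GENCODE vM21 and RefSeq (GRCm38, the build of mm10), and all 10 gene IDs of the members matched. The labels and the paper's methods differ on the tamoxifen dose and days; the labels were followed. UMIs of *Ppnr*, which overlaps *Tcf7l2* on the same strand, cannot be told apart from it in the overlap. Figures were drawn with matplotlib 3.10.9.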

Additional observations from a re-analysis of the deposited data

Results flagged for a closer look

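*Axin2* differed in direction between MG and 3 neuron classes in CCA over control. Its log2 ratio was -0.38 (-0.47 to -0.29) in MG, but 0.62 (0.18 to 1.07) in rods, 0.80 (0.56 to 1.04) in amacrine cells and 1.05 (0.60 to 1.5) in ganglion cells. With 1 library per group the difference between the classes was not tested, and control and CCA cells also differed in sex.

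*Lef1* had log2 ratios of opposite sign in CCA and CCANT for cells with at least 1 *Mki67* or *Top2a* UMI over the other cells. They were -0.49 (-0.69 to -0.31) in CCA and 0.23 (0.02 to 0.45) in CCANT. In CCANT, the 221 cells of this group with the fewest such UMIs were at 29.9 CPM, against 23.5 in cells without any. The 78 CCANT cells with more were at 22.2 (16.4 to 29.3), so the higher level was not seen in them. The intervals cover counting error only. After thinning, the variance of *Lef1* UMIs per CCANT cell was 1.74 times the mean, so the lower end of 0.02 does not exclude no change. The difference between the libraries was not tested.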

How the results depend on the processing

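*Nkd1* kept its direction and stayed past 1.5-fold in every alternative that kept that limit, with log2 ratios of -0.77 to -0.66 over 6 alternatives for CCA over control and -1.03 to -0.77 over 7 for CCANT over control. With a 2-fold limit, 0 members were counted in either contrast. Without the minimum of UMIs the counts were 2 for CCA over control, 2 for CCANT over control, 1 for CCANT over CCA and 1 for cycling over other CCANT cells, in each case by adding *Wif1*. For MG by markers without the tdTomato filter they were 2, 2 and 1 for the 3 library contrasts, again through *Wif1*, beside 10.9% of all genes higher and 3.42% lower, 9.56% and 5.71%, and 2.20% and 6.55%. For cycling over other cells, a limit of 3 UMIs gave 3 members in CCA and 1 in CCANT, and a limit of 10, chosen after seeing the data, gave 3 and 2, the CCANT pair being *Ctnnb1* (higher) and *Dkk3* (lower). At the limit of 10, 20.4% of all genes were higher and 20.5% lower in CCA, and 20.9% and 21.3% in CCANT. The share of all genes past the fold also moved: without the minimum it was 21.5% higher and 10.6% lower for CCA and 19.0% and 12.8% for CCANT over control, and with a 2-fold limit 5.45% and 0.857%, and 5.55% and 1.88%. Members past the fold the same way in all 3 libraries for MG over neurons numbered 7 (22.8% of all genes higher and 26.6% lower), and 6 to 8 in its alternatives (17.0% to 24.2% and 18.9% to 27.5%). Of 403 recomputed ratios of single members, 263 stayed within the counting interval of the value reported, 140 moved outside it and 0 changed direction after being past the fold. Leaving out a replicate was not possible with 1 library per group. No paired analysis was possible because each group is 1 library and the labels number no replicates across groups. Few UMIs limit *Wif1* in every class, and depth limits *Nkd1* in control astrocytes.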

Other observations

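Within each library, MG with no *Mki67* or *Top2a* UMI were compared by their own *Nkd1* count after thinning to 8000 UMIs, as a description over cells that share a library. Cells with 2 or more *Nkd1* UMIs (1453 control, 676 CCA, 525 CCANT) had *Axin2* at 20.3, 20.5 and 18.8 CPM, and cells with none (1028, 1320, 1282) at 16.4, 13.5 and 14.3. The log2 ratios were 0.31 (-0.00 to 0.62), 0.61 (0.24 to 0.98) and 0.39 (-0.02 to 0.80). *Ccnd1* gave 0.09 (0.00 to 0.19), 0.45 (0.32 to 0.57) and 0.33 (0.18 to 0.47), and *Dkk3* 0.06 (0.03 to 0.08), 0.19 (0.16 to 0.23) and 0.12 (0.08 to 0.16). The 3 libraries gave the same sign for these 3 genes and also for *Lef1*, given below. The *Axin2* intervals of control and CCANT include 0. *Ctnnb1*, *Gsk3b* and *Apc* had log2 ratios from -0.09 to 0.13 whose intervals all include 0. *Tcf7l1* gave 0.06 (-0.03 to 0.14), 0.10 (0.00 to 0.19) and -0.04 (-0.14 to 0.06), and *Tcf7l2* 0.00 (-0.07 to 0.07), 0.04 (-0.05 to 0.12) and 0.09 (0.00 to 0.18). The share of all genes that differed this way was not worked out, and the part of MG or rod transcript levels was not tested. *Lef1* in the same comparison gave 0.31 (0.02 to 0.61) in control, 0.04 (-0.29 to 0.35) in CCA and 0.24 (-0.10 to 0.57) in CCANT. In cells with against without an *Axin2* UMI, *Lef1* had log2 ratios of 0.05 (-0.29 to 0.38), -0.09 (-0.54 to 0.34) and 0.59 (0.21 to 0.95). The reverse comparison, of *Axin2* in cells with against without a *Lef1* UMI, reads the same cells and gave 0.28 (-0.07 to 0.62), 0.03 (-0.46 to 0.50) and 0.67 (0.24 to 1.07). These ratios are small and the counts sparse.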
